A study of Mus musculus with 6 samples.

Results

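The B7 and CD28 genes encode the surface molecules through which antigen-presenting cells and lymphocytes tune each other's activity. Of these costimulation and checkpoint genes 10 were followed here, out of the 19057 genes named on the array. They were taken as a fixed list of symbols, read from the normalised probe values. For each gene the brightest probe stood for the gene, and the 10 genes had 18 probes. The genes on the presenting side are Cd274, Pdcd1lg2, Cd80, Cd86 and Cd40, and the lymphocyte receptors are Pdcd1, Havcr2, Lag3, Ctla4 and Cd28.

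A T cell that meets its antigen also needs a second signal, which CD28 gives when it binds CD80 or CD86 on the presenting cell. CTLA-4 competes with CD28 for the same ligands and restrains the response, and PD-1 does so when bound by PD-L1 or PD-L2. CD40 on presenting cells answers to CD40 ligand on T cells and raises CD80 and CD86, while TIM-3 and LAG-3 are inhibitory receptors of activated T and NK cells, and TIM-3 is also found on myeloid cells. NK cells can carry several of these receptors, whereas the ligands are best known from dendritic cells, macrophages and B cells.

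Total RNA of spleen cells was measured on an Illumina mouse BeadArray in 3 TLR7tg mice, a lupus model with a Tlr7 transgene, and in 3 B6 wild-type mice. Sample labels say splenic NK1.1+ for the TLR7tg cells and splenic NK for the B6 cells, and the series design has NK1.1+ in both. Age, treatment and the make-up of the transgene are not given in the labels. Each mouse gave 1 value per probe, which for replicate 1 of each group averages 2 technical arrays. Values are on a log2 scale, and a value of 6.9 marks the detection level, from which on at least 95% of probes had a detection p-value under 0.05 in both mice whose arrays the labels name. A gene was tested if its probe reached that level in at least 3 of the 6 mice, which 9173 genes did.

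The labels were checked first. Tlr7 read 13.04, 14.45 and 13.92 in TLR7tg mice, against 8.48, 9.39 and 9.53 in B6 mice. All 10 tested NK markers fell there by limma, where 6.97% of all tested genes fell. Their mean log2 value was 7.65 to 8.68 in TLR7tg mice, against 11 to 11.14 in B6 mice. Of these, Eomes, a transcription factor of NK cells, Ncr1, the gene of NKp46, and Itga2, the gene of CD49b, were under the detection level in every TLR7tg mouse and above it in every B6 mouse. Those genes passed the filter through the B6 mice alone. With detection required in all 6 mice 7 NK markers were tested and 7 fell. Gzmb was below the detection level in all 6 mice and was not tested. Klrb1c, which encodes NK1.1 itself, read 7.08, 7.41 and 7.92 in TLR7tg mice, against 8.96, 9.93 and 10.02 in B6 mice. In such bulk samples fewer cells of a type and less RNA per cell cannot be told apart.

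Of the 10 genes 8 passed the detection filter. On the presenting side Cd274, Pdcd1lg2 and Cd40 rose in TLR7tg cells, and Cd86 was higher on average without passing the test. Among the receptors Havcr2 rose, while Lag3, Cd28 and Ctla4 did not pass. Cd80 and Pdcd1 lay below or near the detection level in both groups and were not tested. So 4 of the 8 tested genes rose and 0 fell by limma with Benjamini-Hochberg adjustment over all probes, where 7.74% of all tested genes rose and 6.97% fell. At an unadjusted limma p under 0.05, 5 were higher and 2 lower, where this held for 12.8% and 15% of all genes.

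**Figure D1:**
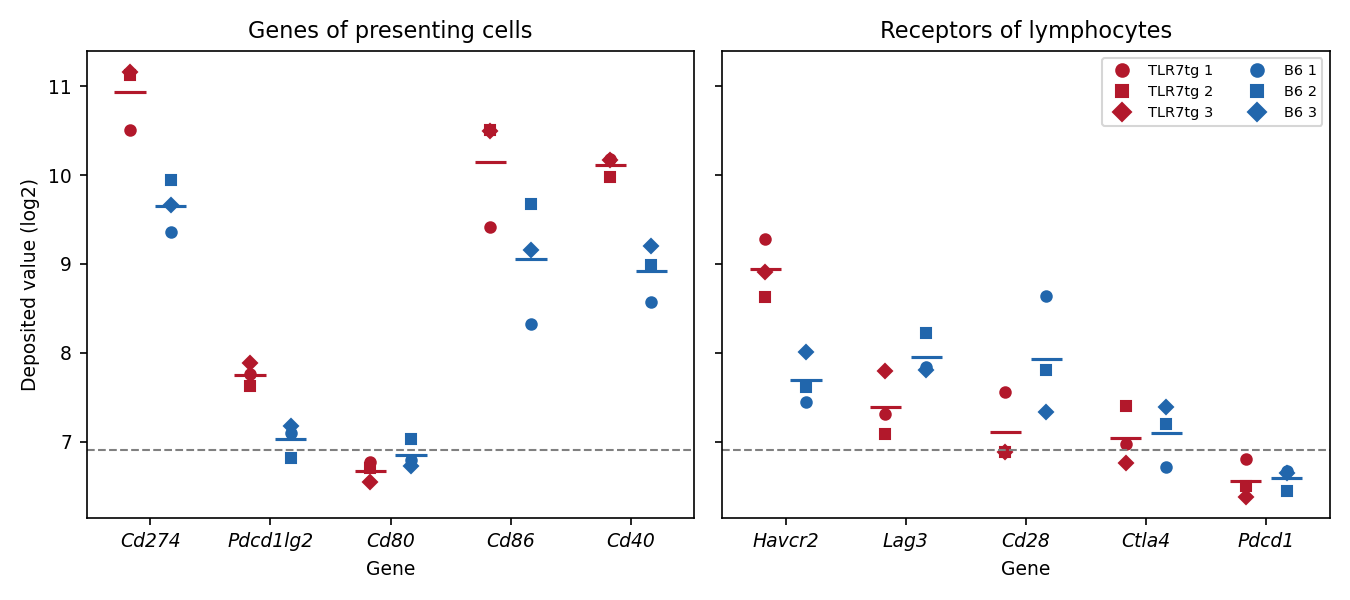
Deposited log2 value (y axis) of each gene (x axis) in each mouse, TLR7tg in red and B6 in blue, with the group mean as a bar and the detection level of 6.9 as a dashed line. All 3 TLR7tg mice lie above all 3 B6 mice for Cd274, Pdcd1lg2, Cd40 and Havcr2, and the groups overlap for Cd86, Cd28, Ctla4, Cd80 and Pdcd1.

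Cd274 encodes PD-L1, the ligand through which many cell types engage PD-1. Its single probe read 10.51, 11.13 and 11.16 in TLR7tg mice, against 9.36, 9.94 and 9.66 in B6 mice. Every TLR7tg mouse lay above every B6 mouse, and replicate 1 was the lowest of its group on both sides. The means were 10.94 ± 0.37 in TLR7tg and 9.65 ± 0.29 in B6 (SD, n = 3 each), so Cd274 rose by 1.28 (SE 0.24, limma adjusted p = 0.00769), which is 2.43-fold on the deposited scale. A difference at least as large was seen in 3.95% of the tested genes. The call held in all 16 refits with other settings, with adjusted p from 0.000635 to 0.0368.

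Pdcd1lg2 encodes PD-L2, the second ligand of PD-1, and is the next protein-coding gene after Cd274 on chromosome 19 in the RefSeq order. It read 7.76, 7.62 and 7.88 in TLR7tg mice, against 7.10, 6.81 and 7.18 in B6 mice. The groups did not overlap, and B6 replicate 2 lay below the detection level. It rose by 0.72 (SE 0.18, limma adjusted p = 0.0289), which is 1.65-fold, and the difference was no lower than 0.61 with any 1 mouse left out. The call ended without TLR7tg replicate 1 (adjusted p = 0.0532), TLR7tg replicate 3 (0.0875), B6 replicate 1 (0.0602), B6 replicate 2 (0.134) or B6 replicate 3 (0.0581), and among the 4 mice other than replicate 1 of each group (0.0640). With normexp background correction of the deposited values the difference was 1.22 (limma adjusted p = 0.0207). Whether background had been subtracted from those values before is not settled here. The outer neighbours of the pair differed by -0.07 (Plgrkt) and 0.12 (Ric1) and did not pass (limma adjusted p = 0.898 and 0.731).

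The promoters of these neighbouring genes that rose are printed here, from 250 bases before to 50 after the annotated start (RefSeq, GRCm38.p6), with matches to the motifs below in capitals. They lie at chr19:29367188-29367487 (Cd274) and chr19:29410669-29410968 (Pdcd1lg2), both on the plus strand.
Cd274: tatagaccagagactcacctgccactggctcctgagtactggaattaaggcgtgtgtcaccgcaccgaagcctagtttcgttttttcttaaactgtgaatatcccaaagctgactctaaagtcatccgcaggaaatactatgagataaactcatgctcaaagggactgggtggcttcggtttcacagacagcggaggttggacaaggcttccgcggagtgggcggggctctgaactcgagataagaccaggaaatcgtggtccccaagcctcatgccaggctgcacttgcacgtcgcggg
Pdcd1lg2: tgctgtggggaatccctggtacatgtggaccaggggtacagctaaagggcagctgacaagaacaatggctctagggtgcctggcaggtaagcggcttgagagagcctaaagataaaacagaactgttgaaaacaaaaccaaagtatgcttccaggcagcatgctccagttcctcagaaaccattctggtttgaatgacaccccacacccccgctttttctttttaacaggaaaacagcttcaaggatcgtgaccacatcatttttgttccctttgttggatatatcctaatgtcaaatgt
Both strands were searched for the AP-1 motif TGANTCA and the TATA motif TATAAA. Neither window holds a match, so neither shows a capital. Of all 32851 RefSeq promoters of this length, 7.81% hold the AP-1 motif and 13.6% the TATA motif.

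Cd40 encodes the receptor through which T cells license presenting cells, and it is widely present on B cells, dendritic cells and macrophages. Its brightest probe read 10.18, 9.98 and 10.17 in TLR7tg mice, against 8.57, 8.99 and 9.20 in B6 mice. The TLR7tg mice were close together and all above B6. Cd40 rose by 1.19 on this probe (SE 0.20, limma adjusted p = 0.00526), which is 2.28-fold, and passed in all 16 refits. The 5 Cd40 probes did not agree in size. The next probes, annotated to the same transcript as the brightest, differed by 0.88 (limma adjusted p = 0.0541) and 0.38 (0.163) with groups that did not overlap. The fourth probe, annotated to a non-coding transcript of the gene, read 6.96, 7.24 and 7.34 in TLR7tg mice, against 6.89, 7.29 and 7.25 in B6 mice, and differed by 0.04 (limma adjusted p = 0.95). The fifth, annotated to another coding transcript, was below the detection level in all 6 mice. With the mean of the 4 kept probes the difference was 0.62 (limma adjusted p = 0.0376).

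Cd86 encodes the B7-2 ligand of CD28 and CTLA-4, present on resting macrophages and raised on activated B and dendritic cells. Its brightest probe read 9.42, 10.51 and 10.50 in TLR7tg mice, against 8.32, 9.67 and 9.16 in B6 mice. TLR7tg replicates 2 and 3 were above all B6 mice, but TLR7tg replicate 1 lay inside the B6 range, and replicate 1 was again the lowest on both sides. The difference of 1.09 (SE 0.39) did not pass (limma adjusted p = 0.107). The labels name a slide for replicate 1 of each group and give none for the other 4 mice, which were taken as 1 block by assumption. Cd86 passed with this assumed slide as a block (limma adjusted p = 0.00238, where 11.1% of genes rose), with mice of neighbouring identifiers as blocks (0.00195, 12.2%), without TLR7tg replicate 1 (0.0173, 8.24%) and among the 4 mice other than replicate 1 (0.0152, 7.05%). The difference itself was 1.1 between the mice of the named slide and 1.09 over the remaining 4. The second Cd86 probe differed by 1.16 and passed (limma adjusted p = 0.0421), with no overlap, and the third differed by 0.71 (0.109).

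Cd80, the B7-1 ligand that binds both CD28 and CTLA-4, did not pass the detection filter. Its brighter probe read 6.77, 6.70 and 6.55 in TLR7tg mice, against 6.79, 7.03 and 6.72 in B6 mice, and reached the detection level in B6 replicate 2 alone. The other probe pointed the other way, with 6.95, 6.76 and 6.83 in TLR7tg mice, against 6.58, 6.46 and 6.62 in B6 mice, and without overlap. On that probe the scanner gave detection p-values of 0.00962 and 0 on the arrays of TLR7tg replicate 1, against 0.626 and 0.544 on those of B6 replicate 1. Neither Cd80 probe passed the filter, and no test is given for them.

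**Figure D2:**
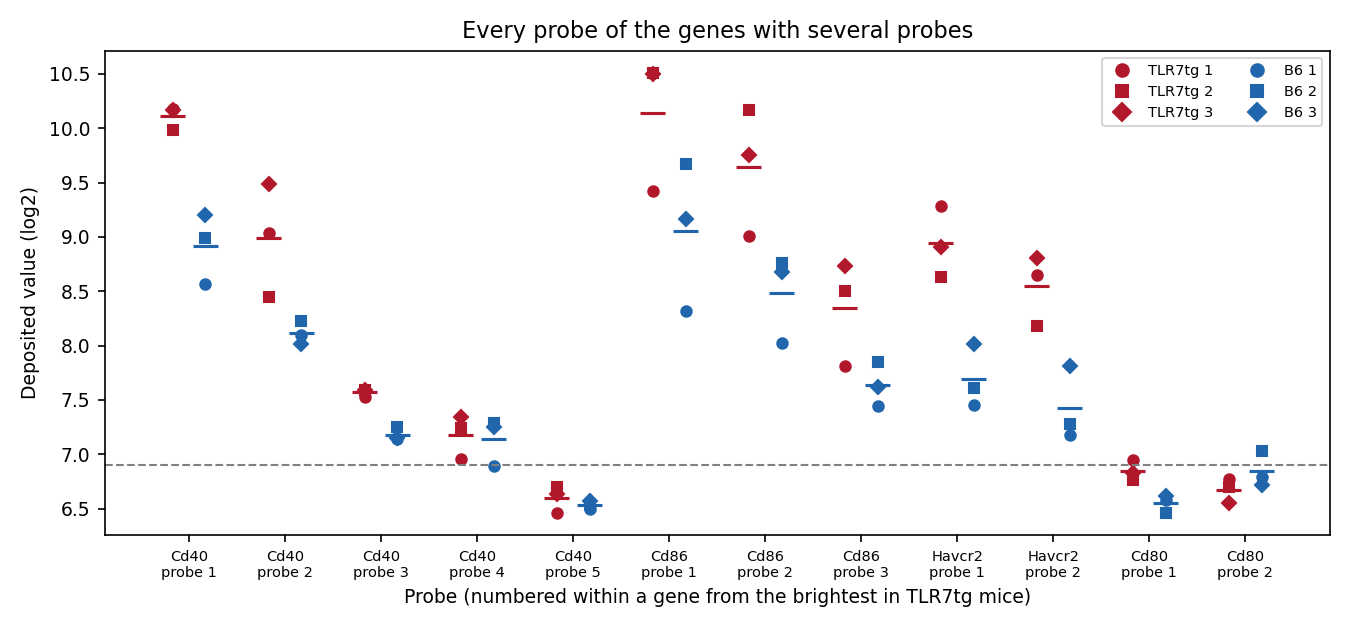
Deposited log2 value (y axis) of every probe (x axis) of the 4 genes with more than 1 probe, TLR7tg in red and B6 in blue, with group means as bars and the detection level of 6.9 as a dashed line. The gap between groups shrinks across the Cd40 probes, 1.19 on the first and 0.04 on the fourth, while both Havcr2 probes show a similar gap and the Cd80 probes lie at the detection level.

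Havcr2 encodes TIM-3, an inhibitory receptor of T and NK cells that monocytes, macrophages and dendritic cells carry as well. It was the receptor that rose. The brighter of its probes read 9.28, 8.63 and 8.91 in TLR7tg mice, against 7.45, 7.61 and 8.01 in B6 mice. The groups did not overlap, and Havcr2 rose by 1.25 (SE 0.23, limma adjusted p = 0.00726), which is 2.37-fold. The other probe differed by 1.12 (SE 0.24, limma adjusted p = 0.0151), also without overlap. The difference was 1.82 between the mice of the named slide and 0.96 over the remaining 4 (limma adjusted p = 0.0260), and the call held in all 16 refits. The Havcr2 promoter, at chr11:46454681-46454980 on the plus strand (GRCm38.p6, RefSeq), is shown for the receptor that rose. Its AP-1 letters TGATTCA, in capitals, are bases 51 to 57 of the window. The RefSeq table held windows of 6 of the 10 genes, of which Cd80 had an AP-1 and a TATA match, Ctla4 a TATA match and Pdcd1 neither motif. Both TATA matches lie past the annotated start, at position 5 in Cd80 (on the other strand) and 41 in Ctla4.
Havcr2: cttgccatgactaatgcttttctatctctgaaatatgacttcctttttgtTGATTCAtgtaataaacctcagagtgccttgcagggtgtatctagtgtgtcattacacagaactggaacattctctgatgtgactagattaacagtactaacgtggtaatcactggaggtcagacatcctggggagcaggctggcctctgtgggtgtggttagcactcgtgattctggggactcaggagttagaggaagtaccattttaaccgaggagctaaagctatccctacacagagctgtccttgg

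Lag3 encodes an inhibitory receptor that binds MHC class II molecules. It read 7.31, 7.08 and 7.79 in TLR7tg mice, against 7.84, 8.22 and 7.80 in B6 mice. All TLR7tg mice were lower, as were 18.5% of all genes, but TLR7tg replicate 3 and B6 replicate 3 differed by only -0.0073. The difference of -0.56 (SE 0.23) did not pass (limma adjusted p = 0.158), nor did it in any of 16 refits, with adjusted p from 0.0659 to 0.439.

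Cd28, the gene of the costimulatory receptor itself, read 7.56, 6.88 and 6.88 in TLR7tg mice, against 8.64, 7.81 and 7.33 in B6 mice. TLR7tg replicate 1 was alone above the detection level in its group, while all 3 B6 mice were, and TLR7tg replicate 1 exceeded B6 replicate 3. The difference of -0.82 (SE 0.33) did not pass (limma adjusted p = 0.160). It ran to -0.47 without B6 replicate 1 (limma adjusted p = 0.371) and to -1.31 with normexp background correction (0.125). It passed with the assumed slide as a block (limma adjusted p = 0.0119, where 11.8% of genes fell) and with mice of neighbouring identifiers as blocks (0.0103, 12.7%), and in no other refit.

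Ctla4, whose product outcompetes CD28 for its ligands, read 6.97, 7.40 and 6.76 in TLR7tg mice, against 6.71, 7.20 and 7.39 in B6 mice. The values lay around the detection level in both groups, which overlapped, and the difference was -0.05 (SE 0.24, limma adjusted p = 0.936). Pdcd1, the gene of PD-1, was below the detection level in all 6 mice, with 6.80, 6.5 and 6.38 in TLR7tg mice, against 6.67, 6.44 and 6.65 in B6 mice. On the scanner its detection p-values were 0.0513 and 0.0267 in TLR7tg replicate 1, against 0.339 and 0.233 in B6 replicate 1. Both ligands of PD-1 passed the detection filter, and Pdcd1 did not.

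Cd28, Ctla4 and Icos, the gene of the inducible costimulator, stand next to each other on chromosome 1. Icos read 6.93, 6.53 and 6.64 in TLR7tg mice, against 7.76, 6.89 and 7.35 in B6 mice, a difference of -0.63 that did not pass (limma adjusted p = 0.134). None of these 3 lymphocyte genes reached the threshold in the fit without a block.

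Set side by side, the presenting-side genes and the receptors had medians of opposite sign. The 4 tested genes of the presenting side had positive differences with a median of 1.14, and 3 of them rose. The 4 tested receptors had a median of -0.31, with 1 positive and 3 negative differences. Over all 9173 tested genes the median was -0.06. The groups did not overlap, with TLR7tg higher, for 3 presenting-side genes and 1 receptor, where this held for 14.1% of all genes. The contrast between the sides is a description, since the genes were chosen with results of these data known.

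**Figure D3:**
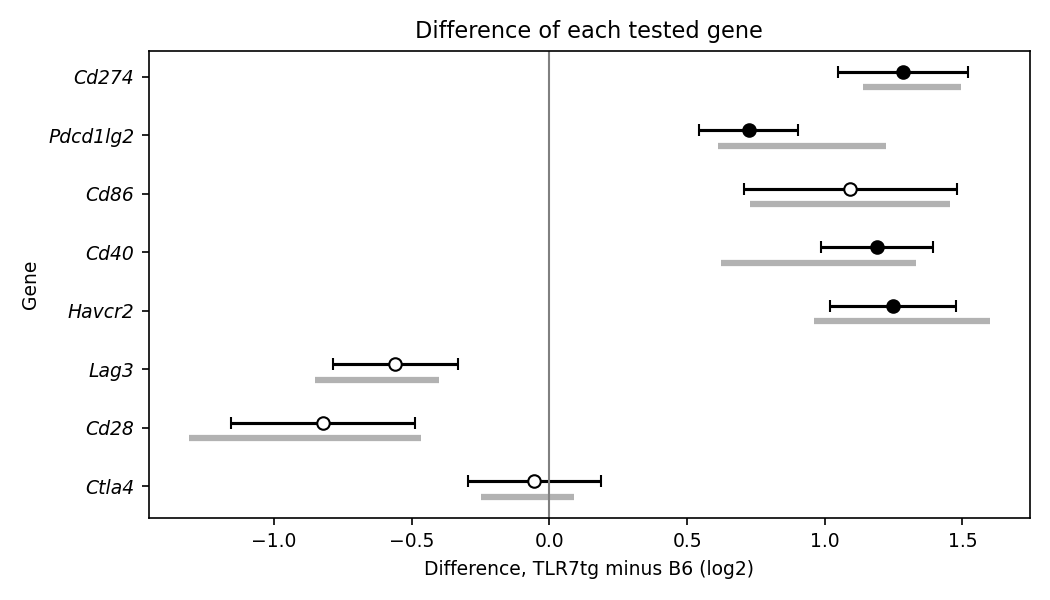
Log2 difference, TLR7tg minus B6 (x axis), of the 8 tested genes (y axis) with its standard error, filled where the limma adjusted p is under 0.05. Grey bars span the differences over the refits with other settings (14 to 16 per gene). Every grey bar stays on 1 side of zero except that of Ctla4.

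The scanner signals of the named arrays gave a second view of 1 mouse per group, with 2 technical arrays each and no test. After quantile normalisation of these 4 arrays, TLR7tg replicate 1 exceeded B6 replicate 1 by 6.39-fold for Havcr2, 3.52-fold for Cd40, 2.59-fold for Cd86, 2.56-fold for Pdcd1lg2 and 2.28-fold for Cd274. Cd28 was at 0.309 and Lag3 at 0.490 of the B6 value. The technical arrays of 1 mouse differed by at most 0.36 on the log2 scale for these 7 genes, in Pdcd1lg2. For all 7 genes the log2 difference of the scanner signals was larger in size than that of the same mice on the deposited scale. It was 2.68 against 1.82 for Havcr2, 1.35 against 0.66 for Pdcd1lg2 and -1.70 against -1.08 for Cd28. Cd274 differed least between the scales (1.19 against 1.15).

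Some markers of other cell types differed between the groups as well. All 8 tested monocyte and macrophage markers had positive differences and 6 rose, where 7.74% of all genes rose. Among the 6 were Fcgr4, an IgG receptor gene (3.43), Csf1r, the receptor gene for macrophage colony-stimulating factor (2.20), Adgre1, a macrophage surface receptor gene (1.86), and Lyz2, the lysozyme gene (1.71). Without the filter on dim probes 2 of the 8 passed. The calls of Csf1r, Adgre1 and Lyz2 ended there (limma adjusted p = 0.0858, 0.0506 and 0.0528). Without TLR7tg replicate 2, 4 of the 8 passed. The mean log2 value of the 8 markers was 10.81, 11.06 and 11.20 in TLR7tg mice, against 8.67, 9.49 and 9.77 in B6 mice. Replicate 1 was the lowest of its group in this mean, as it was for Cd274 and Cd86. All 7 tested neutrophil markers rose, where 7.74% of all genes did. Their means ran from 9.13 to 12.77 in TLR7tg mice, against 6.79 to 7.71 in B6 mice, and TLR7tg replicate 3 was the lowest there. Lcn2 and Ngp reached the detection level in 1 B6 mouse each, and Cxcr2 and Retnlg did not pass the filter. Without the filter on dim probes 1 of the 7 passed by limma (Csf3r). With detection required in all 6 mice 1 was tested. The calls of Ngp, Camp, Ltf and Lcn2 ended in 4 to 6 of 15 refits each (limma adjusted p up to 0.182), among them those without TLR7tg replicate 2, B6 replicate 2 or B6 replicate 3. Among the genes that rose, Cd274 had its lowest TLR7tg value in replicate 1, and Pdcd1lg2, Cd40 and Havcr2 had theirs in replicate 2. In B6 mice Cd274, Cd40 and Havcr2 had their lowest value in replicate 1, and Pdcd1lg2 in replicate 2.

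Of 4 tested markers of conventional dendritic cells 0 passed by limma. At an unadjusted limma p under 0.05, 1 was higher (Batf3, by 1.08), as were 12.8% of all genes. The mean of the 4 ran from 7.47 to 7.83 in TLR7tg mice, against 7.25 to 7.43 in B6 mice. Flt3, Xcr1 and Zbtb46, which define these cells, did not pass the detection filter. Of 5 tested B cell markers 0 passed by limma. At an unadjusted limma p under 0.05, 1 was lower (Fcer2a, -0.61), as were 15% of all genes. The mean of the 5 ran from 8.61 to 9.36 in TLR7tg mice, against 8.76 to 9.25 in B6 mice. Of 7 tested T cell markers 5 fell (Cd3d, Cd3e, Cd3g, Lat and Thy1), where 6.97% of all genes fell. Cd8b1 and Cd6 differed by -0.18 and -0.60 and did not pass (limma adjusted p = 0.650 and 0.0796). The mean of the 7 ran from 7.99 to 8.35 in TLR7tg mice, against 9.61 to 9.80 in B6 mice. Cd4, Cd8a and Cd5 did not pass the filter. Of 2 tested markers of plasmacytoid dendritic cells 0 passed by limma and 0 had an unadjusted p under 0.05. The part of these cell types in the values of the costimulation genes was not tested.

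**Figure D4:**
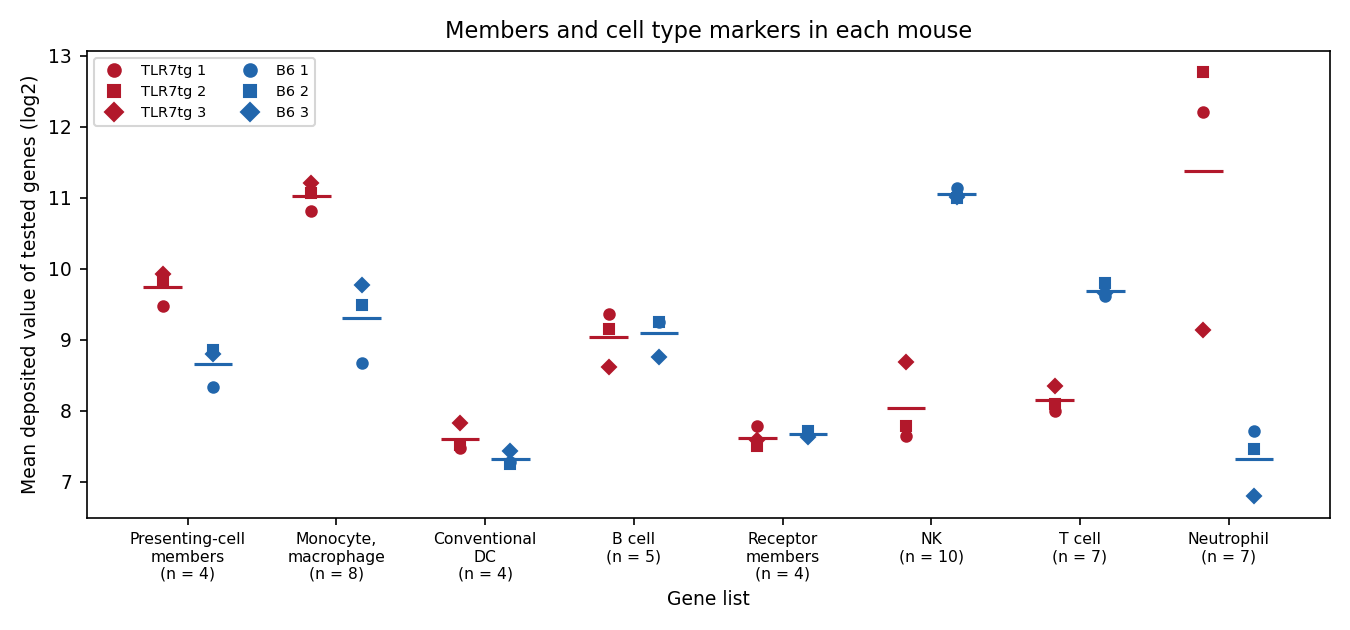
Mean deposited log2 value (y axis) over the tested genes of each list (x axis, with their number) in each mouse, TLR7tg in red and B6 in blue, with group means as bars. The presenting-side genes and the monocyte and macrophage, neutrophil and conventional dendritic cell markers are higher in every TLR7tg mouse than in any B6 mouse. For the dendritic cell markers the nearest mice of the groups are at 7.47 and 7.43. The NK and T cell markers are lower in every TLR7tg mouse, and the receptor genes and B cell markers overlap. Levels are to be read within a list.

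Beyond the 10 genes, 4 of the wider B7 and CD28 family were tested. Of these 0 passed by limma, and 2 had an unadjusted p under 0.05 (Icos, lower, and Vsir, higher). Over all genes 12.8% were higher and 15% lower at that unadjusted limma p. Vsir, which encodes the checkpoint molecule VISTA of myeloid cells, read 8.69, 8.52 and 9.06 in TLR7tg mice, against 7.77, 8.21 and 8.27 in B6 mice, a difference of 0.67 (limma adjusted p = 0.0765). With mice of neighbouring identifiers as blocks Icos was lower and Vsir higher past the threshold (limma adjusted p = 0.0214 and 0.0222), as with the assumed slide as a block (0.0305 and 0.0313). Over all genes 12.7% fell and 12.2% rose with the identifier blocks, and 11.8% fell and 11.1% rose with the slide block. Icosl, the ICOS ligand gene, differed by 0.03 and Btla, an inhibitory receptor gene of B and T cells, by 0.44 (limma adjusted p = 0.959 and 0.401). Cd276 and Vtcn1, genes of further B7 ligands, did not pass the filter.

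Among other co-receptors of lymphocytes and leukocytes, of 7 tested genes 4 fell and 1 rose, with a median of -1.14. Over all genes 6.97% fell and 7.74% rose. Cd160, a receptor gene of NK and T cells, fell by 3.54 (SE 0.36) and Klrg1, an inhibitory receptor gene of mature NK cells, fell by 3.11 (SE 0.36). The nectin-binding receptor genes Cd96 and Cd226 fell by 1.89 and 1.14, and Tigit, of the same group, differed by -0.49 (limma adjusted p = 0.135). Lair1, an inhibitory collagen receptor gene of many leukocytes, read 10.05, 9.17 and 9.76 in TLR7tg mice, against 7.77, 7.76 and 7.86 in B6 mice, and rose by 1.86 (SE 0.23, limma adjusted p = 0.00130).

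Other genes of TNF family costimulation fell where they passed. Of 5 tested genes 4 fell and 0 rose, with a median of -1.18, where 6.97% of all genes fell and 7.74% rose. Cd27, a costimulatory receptor gene, fell by 3.20 (SE 0.24), Tnfrsf18, which encodes GITR, fell by 2.70 (SE 0.24), Tnfsf14, the gene of LIGHT, fell by 1.18 and Tnfrsf9, the gene of 4-1BB, fell by 1.15. Of the TLR7tg mice 1 reached the detection level for Tnfrsf9, and its call held in 11 of 15 refits (limma adjusted p from 0.00111 to 0.0815), ending without TLR7tg replicate 2 and without B6 replicate 2 or 3 among others. The ligand of CD40 itself, Cd40lg, was below the detection level in all 6 mice. So were Cd70 and Tnfsf18, the ligands of CD27 and GITR.

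Among the binding partners of TIM-3 and LAG-3, 1 of 7 tested genes rose, beside 7.74% of all genes, so that the count does not set the list apart. Ceacam1, an adhesion molecule that can bind TIM-3, read 9.83, 10.17 and 9.24 in TLR7tg mice, against 7.37, 7.67 and 7.99 in B6 mice, and rose by 2.08 (SE 0.27, limma adjusted p = 0.00141). Lgals9, the galectin-9 gene, differed by -0.57 (limma adjusted p = 0.226). The MHC class II genes bound by LAG-3 differed by 0.32 (H2-Aa), 0.31 (H2-Ab1) and 0.17 (H2-Eb1), with limma adjusted p from 0.634 to 0.767.

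Of 9 tested signalling genes below CD28 and PD-1, 1 rose and 2 fell, with a median of 0.03, beside the 7.74% of all genes that rose and the 6.97% that fell. Ptpn6, the gene of the inhibitory phosphatase SHP-1, rose by 1.17 (SE 0.21). Prkcq, which encodes the protein kinase C theta that CD28 engages, fell by 2.22 (SE 0.17), and Pik3r1, a regulatory subunit gene of PI3 kinase, fell by 1.79 (SE 0.25). Ptpn11, the gene of the phosphatase SHP-2 that PD-1 recruits, differed by 0.04. Below CD40, Map3k14, which encodes the NF-kB inducing kinase, rose by 0.71 (limma adjusted p = 0.0270, with 0.0120 to 0.127 over the refits), and the other 7 tested genes did not pass.

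Among genes that induce or stabilise PD-L1, 1 of 9 tested rose and 1 fell, which is near the share of all genes that rose (7.74%) and fell (6.97%). Ifngr2, a chain of the interferon gamma receptor, read 8.53, 9.02 and 8.50 in TLR7tg mice, against 7.07, 7.20 and 7.55 in B6 mice, and rose by 1.41 (SE 0.21, limma adjusted p = 0.00313). Jak1, the kinase gene on the other chain of that receptor, fell by 1.01 (limma adjusted p = 0.0160, with 0.00169 to 0.0782 over the refits). Irf1, the transcription factor gene through which interferon gamma raises PD-L1, differed by 0.22 (limma adjusted p = 0.704), and Cmtm6, a stabiliser of PD-L1 protein, by 0.11.

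The genes most like a member over the 6 mice were sought among the tested genes by Pearson correlation. For Cd274 they were Pigz, Ifnlr1 and Tnfaip2 (r of 0.998, 0.996 and 0.995), for Cd40 Rnase4, Ptgir and Sirpb1a (0.999, 0.997 and 0.996), and for Havcr2 Eno3, Flt1 and Ccl6 (0.998, 0.998 and 0.994). With 6 mice in 2 groups and 9173 genes such values come easily, since Ctla4, whose groups overlap, had a best match at 0.983 (Akap1). These likenesses are a description of 6 mice.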

How the data were processed

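The members and gene lists were chosen with earlier results of these data known. The deposited table holds log2 values of 45281 probes in 6 mice, which the authors had normalised between arrays. Sorted columns differ by at most 0.0085, as after quantile normalisation, and no source used here names the tool. The deposited values rise with the log2 scanner signals with a slope of 0.601 (TLR7tg replicate 1) and 0.706 (B6 replicate 1), so folds hold on the deposited scale. The scanner table gives, per the file headers, a signal and a detection p-value per array. The intensity values as deposited by the authors are neither normalised nor background-subtracted. Arrays of 2 mice are named in the labels, and 8 columns that match no label were not used.

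Gene symbols came from the platform annotation, with 1 symbol for 34885 probes, 18 probes with several and 10378 with none. Each gene was read by its brightest kept probe, and 16535 probes were kept. The test was limma's lmFit and eBayes (limma 3.58.1, R 4.3.3) over all kept probes, with Benjamini-Hochberg adjustment and a threshold of 0.05. The fit was tested on simulated data with independent mice and set changes in 200 probes. Those changes were all larger than any member difference in the reported fit, so the test does not cover calls of that size. Differences are TLR7tg minus B6. Named genes were all members, up to 4 passing genes with the largest change per list and any gene of a count of 5 or fewer. Others named with values that did not pass were chosen after their values were seen. Alternatives were the probe filter, probe averaging, variance model, array weights, slide and identifier blocks, normexp (offset 16) and leaving out each mouse. The number of arrays limits the precision. The identifier tags give each sample its own mouse, although in 1 title, that of TLR7tg replicate 1, the mouse number is the one of B6 replicate 1. The p-values set each group difference against the spread within the groups, which limma moderates over all kept probes. Slide and identifier pairs were not part of the reported fit.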

Additional observations from a re-analysis of the deposited data

How the results depend on the processing

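The count of members that rose was 4 in the reported fit and ran from 3 to 5 over the alternatives, within 1.5 times of it. The genes behind the count changed. Without TLR7tg replicate 1, and among the 4 mice other than replicate 1, it was again 4, with Cd86 gained and Pdcd1lg2 lost. The count of members that fell was 0, and 1 (Cd28) with the assumed slide as a block or with neighbouring mouse identifiers as a replicate block. The identifiers were tried as pairs since they lie close to each other, which the labels do not state to mean a litter or a day. Deviations from the group means correlated by 0.63, 0.12 and 0.45 in the 3 pairs. Of the 9173 tested genes 710 rose and 639 fell. Without a filter on dim probes 459 of 19057 rose. Of the same 9173 genes 1118 rose and 1166 fell with the identifier block, and 1083 fell with the assumed slide as a block. The labels give no slide for the 4 mice other than replicate 1, so that block rests on the assumption that they shared one. Leaving out each mouse gave 421 to 756 genes higher and 341 to 629 lower, the lowest of both without B6 replicate 2, and 411 lower without B6 replicate 3. For single members, the difference of Ctla4 ran from -0.249 to 0.0908 when each mouse was left out, positive without TLR7tg replicate 3 or B6 replicate 3, with no call in either. The cause of these shifts was not tested. Dim genes are limited by signal over background: Pdcd1 and Cd80 were not well above background.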
